A study of Mus musculus with 9 samples.

Results

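Cd68 and a set of genes for lysosomal proteins were followed in mouse small intestinal epithelial cells that had met bacterial endotoxin. The set holds 48 genes, listed by name. Each gene was read from the probe set with the highest mean over 9 arrays, and genes at a log2 intensity of 4 or more on at least 3 arrays were measured. By this rule 40 of the 48 genes were measured, among 9431 measured genes of 18193 on the array; 7 lay below the minimum and 1 had no probe set of its own. All 40 were at or above log2 4 on all 9 arrays, so none entered through a single condition. Cd68 was chosen by its measured difference between the third condition and the others, so the Cd68 differences from that condition are described without a test. The rest were listed for their known place in lysosomes or, as Tfeb and Tfe3, for control of lysosomal genes. That list was drawn up with earlier results of these data known. The counts of genes called below cover the other 39.

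The cells were m-ICcl2, a line made from fetal small intestine of a C57BL/6 mouse delivered by C-section, in which the SV40 large T antigen transgene was present in every group. Cells were unstimulated, exposed for 6 h to 100 ng/mL Escherichia coli lipopolysaccharide (LPS, the endotoxin of the outer bacterial membrane), or given the same 6 h of LPS followed by 90 h without it. The last group, taken 96 h after LPS was added, is called tolerant in the study design. Each group had 3 arrays described as biological replicates. The labels give the unstimulated cells no culture time, so for tolerant cells earlier LPS and time in culture cannot be told apart. Whether a level changed within cells or through their number also cannot be told apart in such bulk RNA. Of 14 epithelial markers 10 were measured, with Krt8 between 12.72 and 13.51 on the log2 scale, but Cdh1, Krt19, Cldn3 and Cldn7 lay below log2 4 on all 9 arrays.

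Lysosomes are the acidic compartments in which cells break down proteins, glycans and lipids. A proton pump, the V-ATPase, acidifies them, heavily glycosylated membrane proteins such as those of Lamp1 and Lamp2 line them, and soluble hydrolases fill the lumen. Many lysosomal genes share a promoter element with the core TCACGTGA, to which the transcription factor TFEB and its relatives bind, and these factors raise many such genes together when nutrients are short. Cd68 encodes a mucin-like glycoprotein of the same family as Lamp1 that is abundant in macrophages, where it serves as a marker, and it is made at lower levels by other cell types. The data were therefore asked whether Cd68 moved alone or with the rest of the compartment.

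Promoters were read first, because a shared element is one way in which lysosomal genes are grouped. RefSeq sequence on the mouse build GRCm38.p6, from 250 bases before to 50 bases after each transcription start, was at hand for 43 of the 48 genes; Ctsb, Ctsh, Asah1, Npc1 and Atp6v1h were not matched. Stretches of 5 are shown. Cd68 was taken for its level in the tolerant cells, and Ctsd for an octamer upstream of a gene whose level differed little. Mcoln1, Atp6v0d1 and Sgsh were taken as genes with both a CACGTG match and lower levels. The stretches lie on the minus strand at chr11:69666171-69666420 (Cd68), chr7:142387828-142387927 (Ctsd), chr8:105566061-105566160 (Atp6v0d1) and chr11:119355511-119355610 (Sgsh), and on the plus strand at chr8:3500419-3500518 (Mcoln1). Each is printed 5′ to 3′ along its gene and ends just before the start, except that of Atp6v0d1, which runs 4 bases past it. Capitals mark matches to CACGTG, to TCACGTGA, which contains it, or to TGANTCA, the core bound by AP-1 factors.
Cd68: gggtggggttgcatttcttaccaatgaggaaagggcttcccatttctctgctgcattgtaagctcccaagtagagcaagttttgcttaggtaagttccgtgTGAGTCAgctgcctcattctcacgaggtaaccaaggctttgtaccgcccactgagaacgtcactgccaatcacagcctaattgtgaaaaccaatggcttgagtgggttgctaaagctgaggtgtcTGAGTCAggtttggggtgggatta
Ctsd: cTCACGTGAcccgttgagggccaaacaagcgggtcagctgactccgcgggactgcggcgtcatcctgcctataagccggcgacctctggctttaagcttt
Mcoln1: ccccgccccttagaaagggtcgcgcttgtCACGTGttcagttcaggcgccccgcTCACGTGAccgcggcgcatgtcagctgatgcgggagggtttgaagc
Atp6v0d1: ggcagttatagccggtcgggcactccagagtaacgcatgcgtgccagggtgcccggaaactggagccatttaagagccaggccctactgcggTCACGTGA
Sgsh: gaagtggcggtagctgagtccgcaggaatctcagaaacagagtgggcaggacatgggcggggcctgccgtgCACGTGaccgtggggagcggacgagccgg
The Cd68 window held no CACGTG, and it held TGAGTCA at positions -149 to -143 and -24 to -18 from the start. CACGTG was present in 16 of the 43 genes (37.2%), against 8.09% of 27025 mouse genes with a window. The octamer TCACGTGA was present in 7 of 43 (16.3%), namely Atp6v0d1, Atp6v1a, Cln3, Ctsa, Ctsd, Gla and Mcoln1, against 1.12% of all genes. TGANTCA was present in 5 of 43 (11.6%), Cd68, Glb1, Neu1, Psap and Tfe3, against 8.97% of all genes. Of the 7 genes called lower below in tolerant against unstimulated cells, Gaa, Mcoln1, Atp6v0d1 and Sgsh had CACGTG. Man2b1, Ids and Ppt1 had none of the 3 motifs. All 3 motifs read the same on both strands, and the matches of CACGTG and TGANTCA in Glb1 overlap. These are matches of letters within a short window, and no binding was measured.

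**Figure D1:**
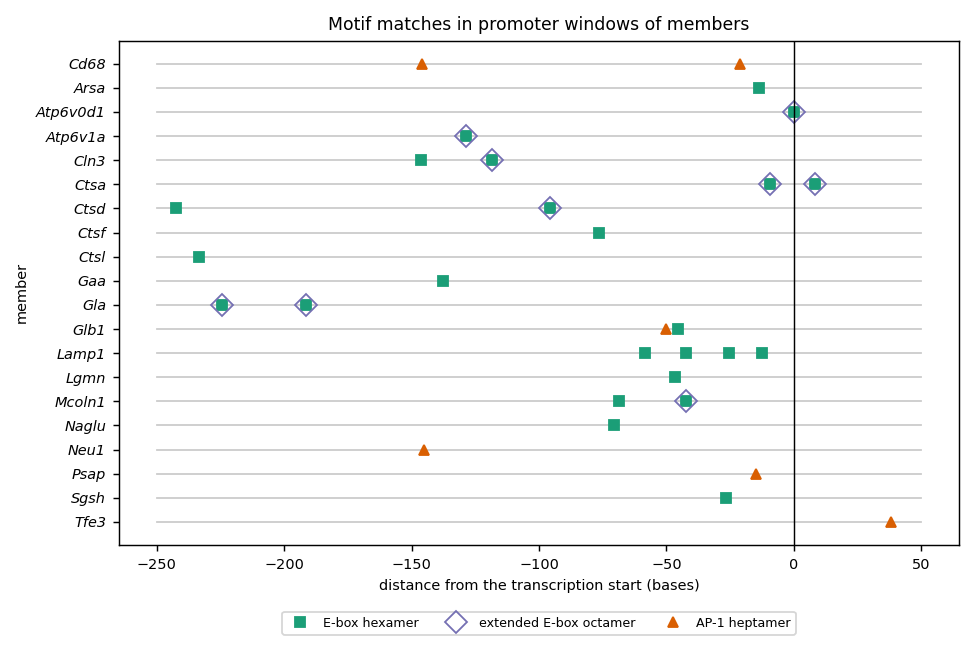
Matches to CACGTG (E-box hexamer, squares), TCACGTGA (extended E-box octamer, diamonds) and TGANTCA (AP-1 heptamer, triangles) in the promoter windows of the lysosomal genes that had any. The x axis is the distance in bases from the transcription start, and each row is 1 gene. The Cd68 window has 2 AP-1 matches and no E-box match.

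Cd68 was far higher on the tolerant arrays than on those of either other group. Its log2 intensity was 5.52, 5.65 and 5.38 on the unstimulated arrays, 5.23, 4.85 and 5.25 after 6 h of LPS, and 9.73, 9.67 and 9.61 on the tolerant arrays. The 3 tolerant arrays lay above the other 6 with no overlap and close to each other. The mean was 9.67 ± 0.06 in tolerant cells (SD, n = 3), 17.8-fold above the unstimulated mean of 5.52 ± 0.13 and 23.7-fold above the 6 h mean of 5.11 ± 0.23. By the size of these differences Cd68 ranked 6th of 9431 measured genes against unstimulated cells and 3rd against 6 h. Cd68 was chosen by these differences, so the ranks only describe that choice. The array carries 1 probe set for Cd68.

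After 6 h of LPS Cd68 was not higher. All 3 arrays after 6 h read below all 3 unstimulated arrays, by 0.41 on the log2 scale on average (95% interval -0.78 to -0.04), and limma's test did not call the difference (adjusted p = 0.181). The rank of this difference among measured genes was 7421 from the highest.

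None of the other 39 genes came near the Cd68 difference. The next was Ctsc, the gene of cathepsin C, a dipeptidyl peptidase that activates serine proteases, at 2.2-fold higher in tolerant than unstimulated cells and 2.59-fold higher than at 6 h. The highest upper 95% bound among the 39 other genes was that of Ctsc, at log2 1.65 against unstimulated cells and 1.89 against 6 h. The Cd68 differences were 4.15 and 4.56. Because Cd68 was chosen by them, its distance from the other genes is described and was not tested. Log2 differences between tolerant and unstimulated cells ran from -1.40 for Man2b1 to 1.14 for Ctsc.

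**Figure D2:**
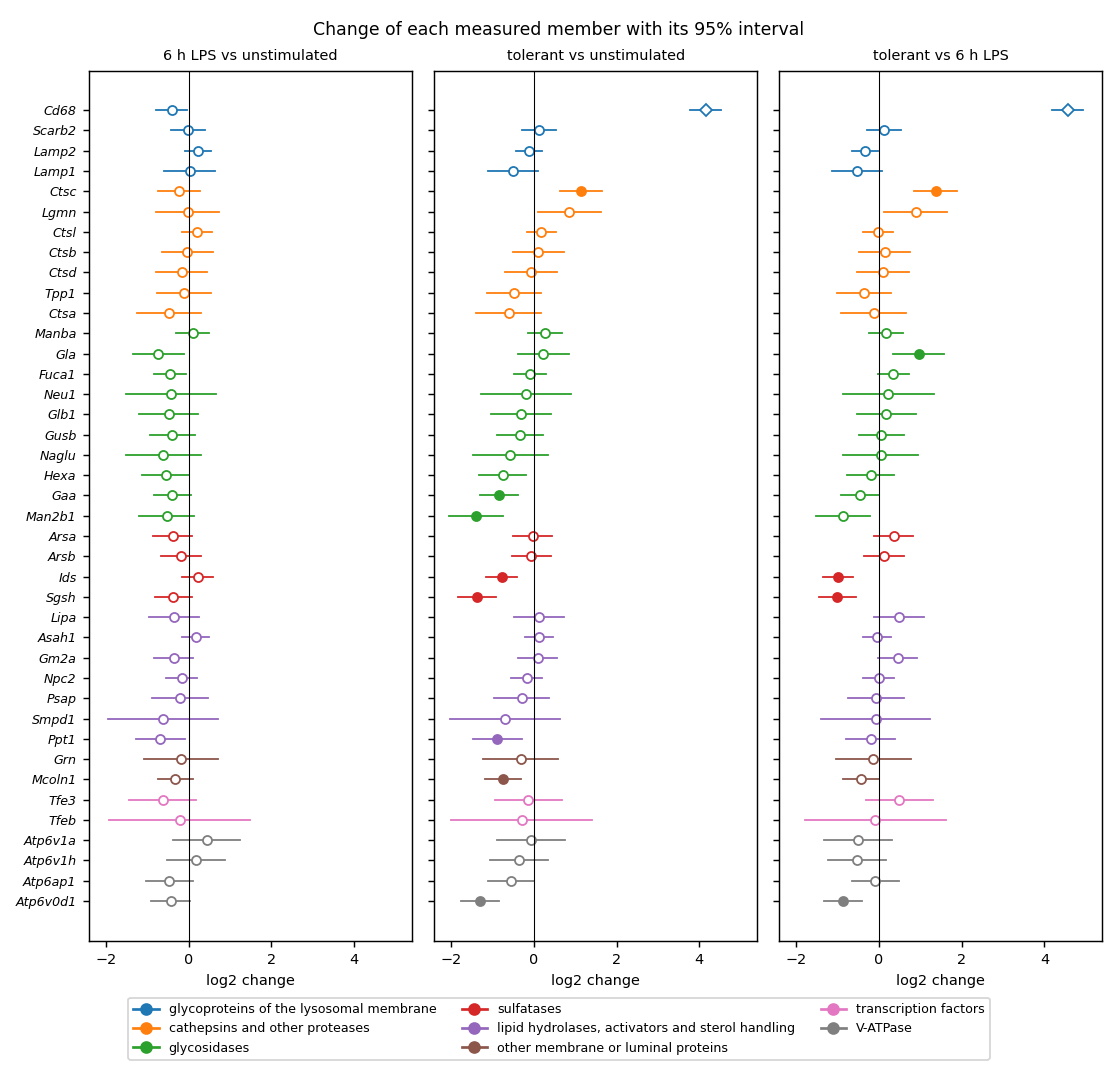
Change of each of the 40 measured genes on the log2 scale (x axis) in 3 comparisons, with 95% intervals; colours give the role of the gene product. Filled circles passed limma's adjusted p of 0.05, open circles did not, and diamonds mark the Cd68 differences that were not tested. The intervals drawn on the diamonds are not read, because Cd68 was chosen by these differences. Cd68 lies at 4.15 and 4.56 in the tolerant comparisons, and every other gene lies between -1.40 and 1.37.

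What 6 h of LPS did to the lysosomal genes was asked first. None of the 39 was called higher or lower, where limma called 0.0636% of all measured genes higher and 0% lower. At an unadjusted p under 0.05 there were 3 of 39 (7.69%), against 22.9% of all genes. The median change of the 39 was -0.32 and that of all measured genes -0.11 on the log2 scale, with 31 of the 39 negative. Arrays did not overlap for 2 genes that were higher and 7 that were lower (5.13% and 17.9%, against 12.9% and 13.2% of all genes).

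Same-numbered arrays of the 3 conditions deviated together across genes, most clearly those of replicate 1. Arrays numbered 2 and 3 also deviated together across numbers. Unstimulated replicate 3 correlated at 0.731 with 6 h replicate 2 and at 0.157 with 6 h replicate 3. A pairing of 2 and 3 by number is therefore not clear in these data. Each count of called genes among the 39 is repeated from a fit that blocks on replicate number. With that block 8 of 39 genes were lower after 6 h of LPS and 0 higher (20.5% and 0%, against 12.5% and 11.6% of all genes). Of these 8, 5 were glycosidases, enzymes that cut sugars from glycans: Hexa, Gla, Neu1, Fuca1 and Naglu. The others were Ctsa, whose product protects Neu1 and Glb1 from degradation, Smpd1, the acid sphingomyelinase, and Atp6v0d1, a subunit of the membrane sector of the proton pump. Gla read 6.50, 6.81 and 6.55 on unstimulated arrays and 5.23, 6.14 and 6.30 after 6 h, which is 1.66-fold lower (adjusted p = 0.162, and 0.0393 with the block). From replicates 2 and 3 alone, 0 genes were called in either direction.

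Tolerant cells were next set against unstimulated ones. Of 39 genes, 1 was called higher and 7 lower (2.56% and 17.9%), where 14.0% of all measured genes were called higher and 12.2% lower. The median change was -0.29 for the 39 and -0.07 for all genes, with 29 of the 39 negative. A change of at least 2-fold was reached by 4 of the 39, against 17.2% of all genes. Arrays did not overlap for 3 that were higher and 8 that were lower (7.69% and 20.5%, against 22.6% and 24.5% of all genes).

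Blocking on replicate gave 2 higher genes and 15 lower (5.13% and 38.5%, against 22.7% and 25.9% of all genes). Replicates 2 and 3 alone also gave 2 and 15, against 18.5% and 19.7% of all genes. Both fits held the 7 first called, and 14 of the lower genes were shared between them. Without tolerant replicate 2 the count of lower genes was 4, and without tolerant replicate 3 it was also 4.

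Tolerant cells were last set against those after 6 h of LPS, a comparison that shares its tolerant arrays with the one before. Of 39 genes, 2 were called higher, Ctsc and Gla, and 3 lower, Ids, Sgsh and Atp6v0d1 (5.13% and 7.69%, against 7.10% and 6.02% of all genes). The median change was -0.04 for the 39 and 0.01 for all genes. With the block 4 were higher and 7 lower (10.3% and 17.9%, against 16.0% and 15.7%), and from replicates 2 and 3 alone 3 and 8 (7.69% and 20.5%, against 11.2% and 11.4%). Without overlap there were 5 higher and 6 lower (12.8% and 15.4%, against 15.9% and 15.4%). The count of 2 higher genes was 1 without any 1 of the 3 unstimulated, the 3 tolerant or the 6 h replicate 2 arrays, since Gla was then lost.

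**Figure D3:**
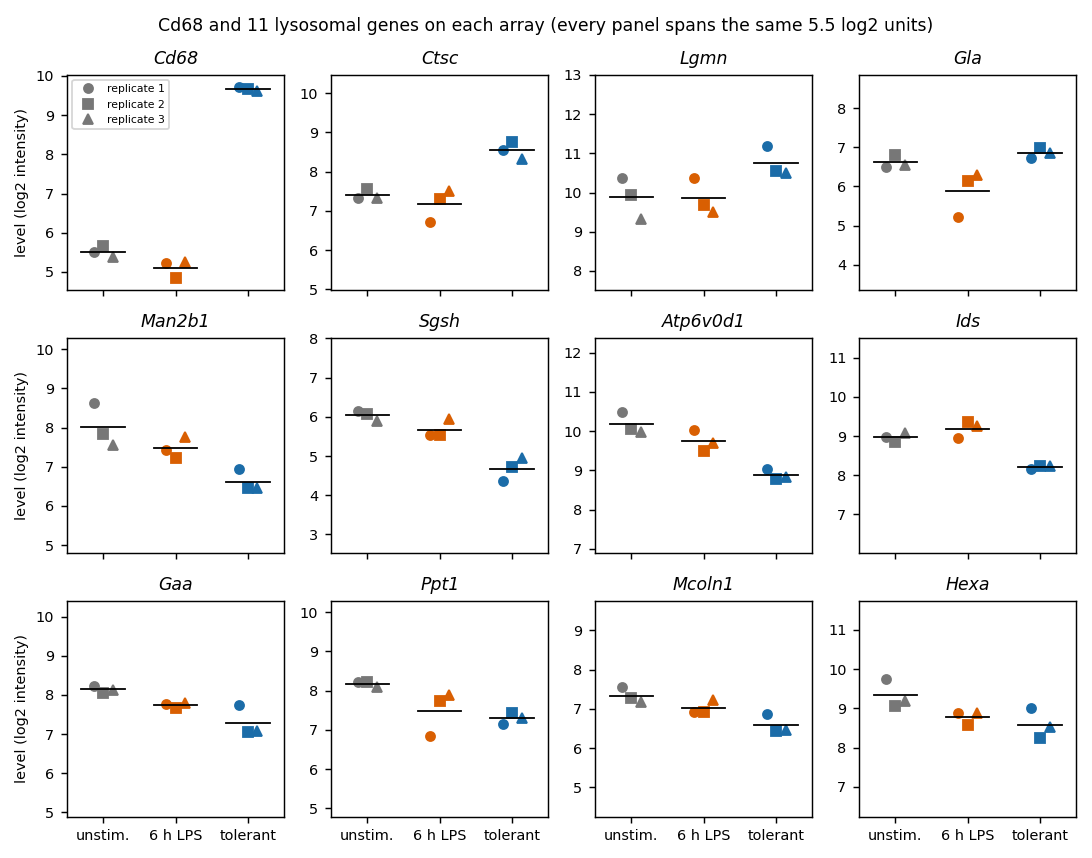
Level of Cd68 and of 11 lysosomal genes on each array (log2 intensity, y axis), by condition; circles, squares and triangles are replicates 1, 2 and 3, lines are means of 3 arrays, and every panel spans 5.5 log2 units. Cd68 is at 9.61 to 9.73 on the tolerant arrays and at 4.85 to 5.65 on the other 6, and the other panels show smaller differences in both directions.

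Among the other glycoproteins of the lysosomal membrane none was called on the probe sets used without the block. Lamp1 read 11.81, 11.30 and 11.27 in unstimulated cells, 11.96, 11.22 and 11.27 after 6 h, and 11.36, 10.75 and 10.77 in tolerant cells. It was 1.41-fold lower in tolerant than in unstimulated cells without passing the test (adjusted p = 0.21), and passed with the block (adjusted p = 0.00871). Against 6 h it was 1.44-fold lower (adjusted p = 0.261, and 0.0108 with the block). Scarb2, the receptor that carries glucocerebrosidase to lysosomes, differed by 0.13 on the log2 scale in tolerant cells (interval -0.28 to 0.54, adjusted p = 0.651). Cd63, a tetraspanin of the same membrane, had no probe set of its own.

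Lamp2 gave different answers from its probe sets. The probe set used here read 11.68 to 11.80 in unstimulated, 11.96 to 12.04 after 6 h and 11.53 to 11.76 in tolerant cells, a difference of -0.10 between tolerant and unstimulated cells (adjusted p = 0.629). A further pair of its 4 passing probe sets was higher in tolerant cells, by 1.00 (adjusted p = 0.0364) and 0.94 (adjusted p = 0.00833). The same pair stood at 1.21 and 0.89 above unstimulated cells after 6 h (adjusted p = 0.114 for both), and passed there with the block (adjusted p = 0.0323 and 0.0318). The remaining one differed by -0.09 in tolerant cells. The direction of Lamp2 therefore depends on the probe set.

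Neu1, the lysosomal sialidase, differed likewise. Its used probe set read 10.20, 9.03 and 9.11 in unstimulated and 9.97, 8.88 and 8.94 in tolerant cells, a difference of -0.18 (adjusted p = 0.818). Its other probe set read 6.17, 5.73 and 5.84 in unstimulated, 6.19, 5.48 and 5.99 after 6 h and 3.99, 4.49 and 4.67 in tolerant cells. That is a fall by 1.53 against unstimulated cells (adjusted p = 0.00311) and by 1.51 against 6 h (adjusted p = 0.00521). Of 19 genes with more than 1 passing probe set, 6 had at least 1 that differed in its change by over 1.5-fold: Lamp2, Scarb2, Ctsb, Gla, Neu1 and Lipa.

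**Figure D4:**
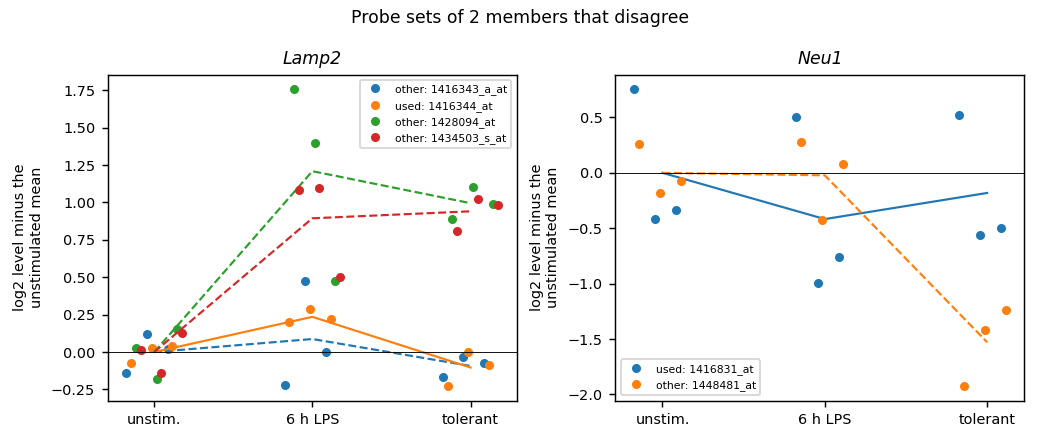
Levels on the passing probe sets of Lamp2 (4) and Neu1 (2), as log2 level minus the mean of the 3 unstimulated arrays (y axis), by condition; points are arrays, lines join condition means, solid for the probe set used and dashed for the others. A pair of Lamp2 probe sets is at means of 1.00 and 0.94 in tolerant cells while the used one is at -0.10, and the other Neu1 probe set is at -1.53 while the used one is at -0.18.

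Cathepsins and other proteases of the lumen, 7 of 11 measured, held the single gene called higher in tolerant than unstimulated cells. Of all genes 14.0% were called higher there. Ctsc read 7.33, 7.56 and 7.34 in unstimulated cells, 6.70, 7.30 and 7.51 after 6 h, and 8.55, 8.75 and 8.33 in tolerant cells. The tolerant arrays lay above all others. The rise was 2.2-fold over unstimulated cells (adjusted p = 0.00722) and 2.59-fold over 6 h (adjusted p = 0.00503).

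Lgmn, the asparaginyl endopeptidase that processes cathepsins, read 10.37, 9.94 and 9.32 in unstimulated, 10.38, 9.68 and 9.50 after 6 h and 11.20, 10.54 and 10.49 in tolerant cells. It stood 1.82-fold higher in tolerant than unstimulated cells, short of the threshold (adjusted p = 0.0906), and passed with the block (adjusted p = 0.00173). Against 6 h it was 1.85-fold higher (adjusted p = 0.126, and 0.00247 with the block).

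The main cathepsins barely differed between tolerant and unstimulated cells on the probe sets used. Ctsd, the aspartic protease, differed by -0.06 (interval -0.69 to 0.56), Ctsb, a cysteine protease, by 0.11 (interval -0.51 to 0.72) and Ctsl, another, by 0.19 (interval -0.17 to 0.54) on the log2 scale. Ctsd ranged over the 9 arrays from 11.88 to 12.70, Ctsl from 11.97 to 12.47 and Ctsb from 11.51 to 12.35. Another Ctsb probe set, at 7.22 to 7.59 in unstimulated cells, fell by 0.63 (adjusted p = 0.039). A further one, at 6.95 to 7.61 there, differed by -0.54 (adjusted p = 0.0731, and 0.0127 with the block). The remaining passing Ctsb probe set differed by 0.12, so its direction depends on the probe set. Ctsa differed by -0.60 and Tpp1, a tripeptidyl peptidase, by -0.48. Neither passed the test (adjusted p = 0.231 and 0.256), and both were lower with the block (adjusted p = 0.00987 and 0.0134).

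Ctss, a cathepsin of antigen-presenting cells, lay between 2.70 and 2.83 on all arrays. Ctsf, Ctsh and Ctsz were also below log2 4 on all 9 arrays, the highest value among them being 3.71 for Ctsz on tolerant replicate 1. These 4 are below the minimum, where differences carry no order.

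Glycosidases, 10 of 11 measured, held 2 genes called lower in tolerant than unstimulated cells, where 12.2% of all genes were. Man2b1, the acid alpha-mannosidase of glycoprotein breakdown, read 8.63, 7.85 and 7.55 in unstimulated cells, 7.44, 7.24 and 7.76 after 6 h, and 6.93, 6.46 and 6.45 in tolerant cells. Its tolerant arrays lay below the other 6, a fall of 2.63-fold from unstimulated cells (adjusted p = 0.00869). Against 6 h Man2b1 was at -0.87 with no call, and it passed with the block (adjusted p = 0.0233). Gaa, which digests glycogen, read 8.22, 8.06 and 8.14 in unstimulated and 7.74, 7.06 and 7.08 in tolerant cells, a fall of 1.8-fold (adjusted p = 0.0152). The Gaa call was lost without tolerant replicate 2 (adjusted p = 0.0685) or tolerant replicate 3 (adjusted p = 0.0657), and on its other probe set (-0.86, adjusted p = 0.251).

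Gla, the alpha-galactosidase of globosides, read 6.73, 6.98 and 6.86 in tolerant cells. That is 1.95-fold above 6 h (adjusted p = 0.0469) and 1.18-fold above unstimulated cells (adjusted p = 0.565). The call against 6 h was lost without any of 7 arrays (adjusted p between 0.0583 and 0.148), and its other probe set differed by 0.32 (adjusted p = 0.475).

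The remaining glycosidases differed between tolerant and unstimulated cells without passing the test. Hexa, the alpha subunit of beta-hexosaminidase, was at 9.74, 9.07 and 9.20 in unstimulated and 9.01, 8.23 and 8.51 in tolerant cells, 1.68-fold lower (adjusted p = 0.0559, and 0.00374 with the block). Naglu, an enzyme of heparan sulfate breakdown, differed by -0.56 (adjusted p = 0.342, and 0.005 with the block). The differences of Glb1, Gusb and Fuca1 were -0.30, -0.33 and -0.09, and that of Manba was 0.27. These are the beta-galactosidase, beta-glucuronidase, alpha-fucosidase and beta-mannosidase of the lumen. Idua lay below the minimum, with its highest value at 4.46 and 2 arrays at log2 4 or more.

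Of 4 sulfatases, which remove sulfate groups from glycans and sulfatides, 2 fell in tolerant cells (12.2% of all genes did against unstimulated cells). Sgsh, the heparan sulfamidase, read 6.15, 6.08 and 5.90 in unstimulated cells, 5.53, 5.53 and 5.96 after 6 h, and 4.37, 4.71 and 4.94 in tolerant cells. The tolerant arrays were the lowest and did not overlap with either other group. The fall was 2.58-fold from unstimulated cells (adjusted p = 0.00192) and 2-fold from 6 h (adjusted p = 0.0124).

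Ids, the iduronate sulfatase of the same breakdown pathway, read 8.97, 8.86 and 9.09 in unstimulated, 8.94, 9.36 and 9.27 after 6 h and 8.15, 8.22 and 8.23 in tolerant cells. Again the tolerant arrays lay below the other 6. The fall was 1.71-fold from unstimulated cells (adjusted p = 0.00853) and 1.99-fold from 6 h (adjusted p = 0.00464), while its other passing probe set differed by -0.49 from unstimulated cells (adjusted p = 0.115). Arsa and Arsb, the arylsulfatases for sulfatides and for dermatan sulfate, differed by -0.03 and -0.05 from unstimulated cells.

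Genes of lipid breakdown and sterol handling, 7 of 8 measured, held 1 that fell, a share near the 12.2% of all genes. Ppt1, which removes palmitate from proteins, read 8.22, 8.23 and 8.09 in unstimulated cells, 6.84, 7.74 and 7.90 after 6 h, and 7.14, 7.44 and 7.31 in tolerant cells. It was 1.84-fold lower in tolerant than unstimulated cells (adjusted p = 0.0373), a call that was lost without any 1 of the 6 arrays compared (adjusted p between 0.0697 and 0.107). The 6 h values already lay below the unstimulated ones, by 1.61-fold (adjusted p = 0.17, and 0.0508 with the block).

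The other lipid genes did not pass the test without the block. Asah1, the acid ceramidase, Gm2a, an activator of ganglioside breakdown, and Lipa, the acid lipase, differed by 0.13, 0.09 and 0.13 from unstimulated cells. Against 6 h Lipa was at 0.49 in tolerant cells and passed with the block (adjusted p = 0.0271). Its other passing probe sets were at -0.51 and 0.08 there. Npc2, a sterol carrier, and Psap, the precursor of the saposin activators, differed by -0.17 and -0.29. Smpd1 read 10.08, 8.62 and 8.49 in unstimulated and 9.24, 7.96 and 7.92 in tolerant cells, with replicate 1 far above the rest in both. It differed by -0.69 (adjusted p = 0.423, and 0.00457 with the block). Npc1, the membrane partner of Npc2, was between 2.69 and 2.96 on all arrays.

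Mcoln1, the calcium channel mucolipin of the lysosomal membrane, fell in tolerant cells. It read 7.56, 7.28 and 7.17 in unstimulated, 6.92, 6.91 and 7.22 after 6 h and 6.87, 6.43 and 6.47 in tolerant cells, and the tolerant arrays lay below the others. The fall was 1.67-fold from unstimulated cells (adjusted p = 0.02), lost without unstimulated replicate 1 or 2 or tolerant replicate 2 or 3 (adjusted p between 0.0573 and 0.085). Grn, the gene of progranulin, which is secreted and also reaches lysosomes, was at 11.53 to 12.78 and differed by -0.31 (adjusted p = 0.611). Cln3, a membrane protein, lay below the minimum and reached log2 4 on 1 array only, unstimulated replicate 1, with 3.73 as its next value. Among measured genes the lowest single values were 4.24 for Tfeb and 4.37 for Sgsh.

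The transcription factors of the compartment gave no call. Tfeb read 6.55, 4.75 and 5.01 in unstimulated, 6.63, 4.24 and 4.79 after 6 h and 6.38, 4.36 and 4.68 in tolerant cells. Its replicate 1 array was higher than the others in every condition, and its difference between tolerant and unstimulated cells was -0.29, with an interval of -1.99 to 1.41 in the fit without the block. The 3 same-numbered pairs differed by -0.17, -0.38 and -0.32, and with the block the standard error was 0.14 in place of 0.75 (adjusted p = 0.813, and 0.116 with the block). Tfe3, a relative of Tfeb, differed by -0.13 (interval -0.93 to 0.68). Transcript levels of these factors do not report where the proteins are, and TFEB is known to be controlled by its move into the nucleus.

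Of 4 V-ATPase genes 1 fell in tolerant against unstimulated cells, where 12.2% of all genes did. Atp6v0d1 read 10.48, 10.05 and 9.98 in unstimulated cells, 10.03, 9.48 and 9.70 after 6 h, and 9.05, 8.78 and 8.82 in tolerant cells. The tolerant arrays lay below all others, a fall of 2.44-fold from unstimulated cells (adjusted p = 0.00273). Against 6 h the fall was 1.81-fold (adjusted p = 0.0255), lost without 6 h replicate 1 or 3 or tolerant replicate 2 or 3 (adjusted p between 0.0565 and 0.0959).

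The other pump genes differed less. Atp6ap1, an accessory subunit, and Atp6v1h, a regulatory subunit of the sector that splits ATP, differed by -0.55 and -0.36 from unstimulated cells (adjusted p = 0.14 and 0.435); blocking on replicate brought both past the threshold (adjusted p = 0.0348 and 0.0363). Atp6v1a, the catalytic subunit, was at 0.44 after 6 h (adjusted p = 0.49, and 0.0524 with the block) and at -0.06 in tolerant cells (adjusted p = 0.919). Against 6 h Atp6v1a and Atp6v1h were at -0.50 and -0.52 in tolerant cells with no call. Both passed there with the block (adjusted p = 0.0268 and 0.0115).

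Replicate 1 stood apart within this set in every condition. It was the highest of the 3 arrays in all 3 conditions for 17 of 39 genes (43.6%, against 28.8% of all measured genes) and the lowest for 5 (12.8%, against 22.4%). Its mean excess over replicates 2 and 3 was largest for Tfeb at 1.88, Smpd1 at 1.47 and Neu1 at 1.19 on the log2 scale, and its largest deficit was -0.95 for Grn. The beta-actin controls, a sign of RNA quality, read higher at the 3′ than at the 5′ end by 0.40 to 0.72 on the log2 scale in replicate 1 and by 1.02 to 1.38 elsewhere. The counts from replicates 2 and 3 alone are those given with each comparison. For Cd68 replicate 1 lay between the other arrays in unstimulated cells and after 6 h, and was the highest by a narrow margin in tolerant cells.

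**Figure D5:**
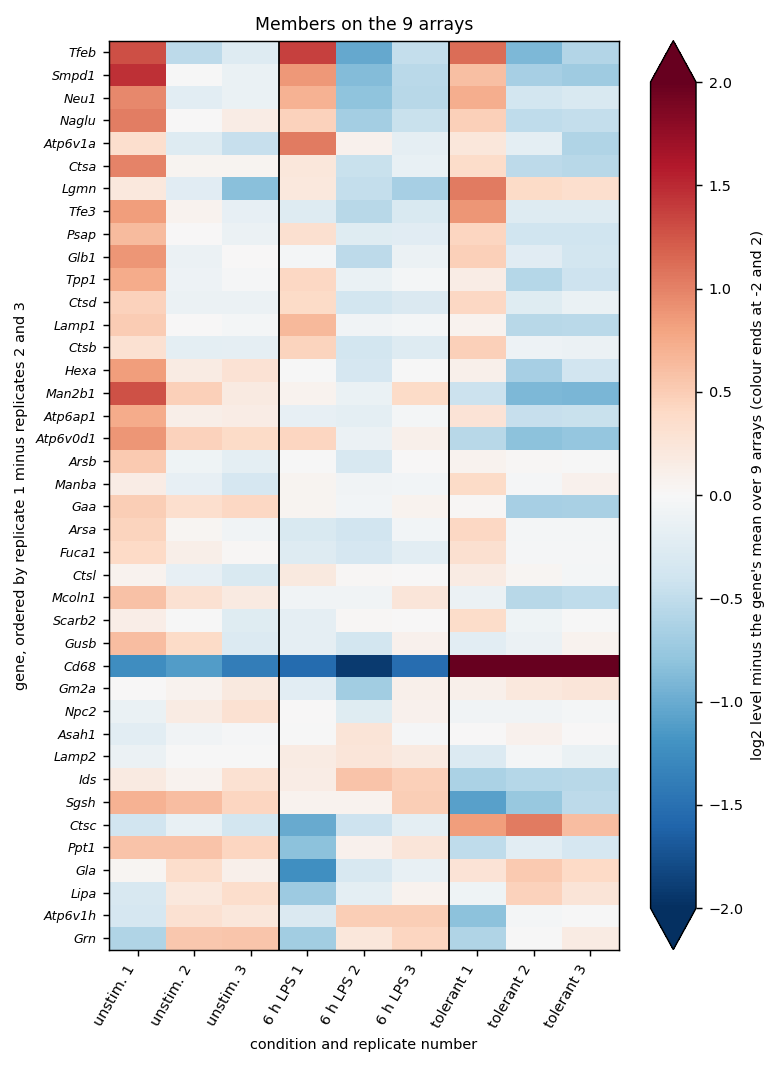
Level of the 40 measured genes on the 9 arrays, as log2 level minus the gene's mean over 9 arrays (colour, red high and blue low, ending at -2 and 2), with genes ordered from top to bottom by replicate 1 minus replicates 2 and 3. Cd68 separates the 3 tolerant arrays, while Tfeb and Smpd1 at the top and Grn at the bottom separate replicate 1 in every condition.

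Further genes of the pathway, in 6 lists with 122 measured genes, changed in both directions in tolerant against unstimulated cells. In all 9 rose and 20 fell (7.38% and 16.4%, against 14.0% and 12.2% of all measured genes), with a median of -0.28. The 9 include Rragd, which passed the level minimum only through the tolerant arrays. The block gave 16 and 44 (13.1% and 36.1%, against 22.7% and 25.9%). Against 6 h 5 rose and 12 fell (4.10% and 9.84%, against 7.10% and 6.02%). After 6 h of LPS 0 were called in either direction, and with the block 11 were higher and 13 lower (9.02% and 10.7%, near the 11.6% and 12.5% of all genes). The counts of single lists below are from the fit without the block, to be read against the same 14.0% and 12.2%. With the block, to be read against 22.7% and 25.9%, luminal hydrolases gave 1 higher and 9 lower. Membrane proteins gave 2 and 6, V-ATPase subunits 1 and 6, and sorting genes 4 and 8. Regulators gave 4 and 7, and autophagy genes 4 and 8.

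Among other luminal hydrolases 0 of 15 rose and 3 fell. These were Ggh, the gamma-glutamyl hydrolase of folates, which fell by 2.26 on the log2 scale to 3.91 with 1 tolerant array below the minimum (adjusted p = 0.000577), Dpp7, a dipeptidyl peptidase (fell by 2.02, adjusted p = 0.0024), and Acp2, the acid phosphatase of lysosomes (fell by 1.01, adjusted p = 0.00563). The median of these 15 was -0.60. Of 13 other V-ATPase subunits 0 rose and 2 fell, Atp6v0e2 and Atp6v0e, by 0.69 and 0.58 on the log2 scale.

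Among 21 other membrane proteins 1 rose and 4 fell. Slc29a3, a nucleoside transporter, fell by 2.11, Slc36a1, an amino acid transporter, by 1.33 and Clcn7, the chloride-proton exchanger, by 0.85 on the log2 scale. Cd9, a tetraspanin that is also at the cell surface, was the one that rose, by 1.80 (adjusted p = 0.000577). Of 28 genes that sort cargo to lysosomes 2 rose and 6 fell, with Vps33a, a tethering protein, at -1.91, the adaptor genes Gga2 at -1.54 and Ap1m1 at -1.17, and Ap1s2 at 1.86.

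Of 19 regulators of lysosomes and nutrient sensing 3 rose and 3 fell, shares near those of all genes in the fit without the block. Rragd, a Rag GTPase, was at least 2.06-fold higher. It lay below the minimum on all unstimulated and 6 h arrays and so was measured only through the tolerant ones. Rragd is counted among the 3 that rose although it passed the minimum only by being high there. Mitf, a relative of Tfeb, rose by 1.51 (adjusted p = 0.0074) and Fnip1 by 1.22 (adjusted p = 0.0433), while Flcn, its partner in signalling to the Rag GTPases, fell by 1.47 (adjusted p = 0.00213). Of 26 autophagy genes 3 rose and 2 fell, with Atg4a, a protease, at 1.52 and Tax1bp1, a cargo receptor, at 0.94, and with Ulk1, the initiating kinase, at -1.18 and Map1lc3a at -0.94.

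Cd68 is best known from macrophages, so their markers were read beside it. Of 24 macrophage markers 21 lay below log2 4 on all 9 arrays, among them Adgre1, Itgam, Ptprc, Lyz2 and Tyrobp. The summed level of the list on the linear scale was 1468 to 2689 in unstimulated cells, 1000 to 2570 after 6 h and 623 to 1055 in tolerant cells. Most of that sum was Csf1r on every array but tolerant replicate 1, where Csf1r was the smaller part. Without Csf1r the sums were 328 to 374, 347 to 548 and 372 to 432. Csf1r, the receptor for the macrophage growth factor, read 10.10, 11.06 and 11.20 in unstimulated and 7.97, 9.25 and 9.30 in tolerant cells, a fall of 3.85-fold (adjusted p = 0.0232). Spi1, a transcription factor of myeloid cells, fell at least 1.94-fold, and Cd14, the LPS co-receptor, stood 1.44-fold higher with no call (adjusted p = 0.192).

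Markers of other cell types were read likewise. Of the 9 epithelial markers at or above log2 4 on all arrays 6 rose in tolerant cells (14.0% of all genes did), among them Cldn4, Cdh17 and Tjp1. Epcam, below log2 4 on all unstimulated and 6 h arrays, was at 5.31 to 6.07 in tolerant cells. The summed level of the list was 27803 to 32850 there against 20057 to 23397 in unstimulated cells and 18857 to 25151 after 6 h. Their part in the Cd68 difference was not tested. Of 10 fibroblast markers only Vim was measured, with list sums of 9698 to 11732 over all arrays, and 0 of 10 lymphocyte and endothelial markers with a probe set were measured.

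The genes that lie next to Cd68 on chromosome 11 did not share its difference. On one side Mpdu1, a gene of glycan synthesis, fell by 0.94 on the log2 scale in tolerant against unstimulated cells (adjusted p = 0.00248), and Fxr2 and Wrap53 differed by 0.21 and -0.12. On the other side Eif4a1, a translation factor, and Senp3, a SUMO protease, differed by 0.04 and -0.26, and Polr2a, the large subunit of RNA polymerase II, fell by 1.84 (adjusted p = 0.0154). After 6 h of LPS Mpdu1 was at -0.58 (adjusted p = 0.115, and 0.0325 with the block). None of these 6 was called higher in any of the 3 comparisons. Of all genes 0.0636% were called higher after 6 h, 14.0% in tolerant against unstimulated cells and 7.10% against 6 h. At such shares 6 genes without that call say little about the region.

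Patterns like that of Cd68 over the 9 arrays were then listed. Outside the lysosomal set, the 8 genes with the highest Pearson correlation with Cd68 were Sprr1a, Kcnk1, S100a3, Rnd1, Emp1, Nlrp10, Fhl2 and Tnnt2, at r between 0.992 and 0.997. Sprr1a, a gene of the cornified envelope, had means of 9.51 in unstimulated, 8.89 in 6 h and 12.96 in tolerant cells. Kcnk1, S100a3, Rnd1 and Nlrp10 lay below log2 4 on all unstimulated and 6 h arrays, so they were measured only through the tolerant arrays, the condition by which Cd68 was chosen. Of the 39 lysosomal genes 1, Ctsc at 0.93, had an r above 0.8 (2.56%, against 7.27% of 9430 other genes), and the lowest was Ids at -0.97. The median r was -0.16 for the 39 genes and -0.02 for all. These values of r describe 9 arrays that fall into 3 conditions, and they were not tested.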

How the data were processed

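RNA of 9 samples was prepared with TRIzol, its quality was read on a Bioanalyzer, and biotin-labelled material was hybridized to Affymetrix arrays, per the labels' protocols. Whether the biological replicates were separate cultures is not in the labels, so p-values measure the spread between these arrays. The authors deposited linear intensity for each probe set and array. Per the submitters' processing notes GCRMA made it, in a version not given here. This method removes a background modelled on probe sequence, and low values crowd near a floor. Log2 of the deposited intensity was taken here with no pseudocount. The array has 45101 probe sets, among them 64 controls; a single gene symbol was listed for 34945, several for 932 and none for 9160, and only the first kind was used. In all, 9431 of 18193 genes (51.8%) passed the minimum of log2 4 on 3 arrays. Array medians of these genes were 7.62 to 7.84. Levels are not compared between probe sets, and precision is limited by the number of arrays.

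R 4.3.3 and limma 3.58.1 fitted a mean per condition over all 9 arrays (6 residual degrees of freedom), with eBayes and two-sided tests, Benjamini-Hochberg adjusted over all measured genes at 0.05. Members, lists, motifs and tests were chosen with earlier results of these data known. Every measured member is named; of each other list at most 4 called genes are named by size of change, the 8 genes most correlated with Cd68, and the 3 nearest measured genes on each side of it. For a group wholly below log2 4 the fold is a bound against log2 4. Markers and 6 pathway lists hold 216 genes, of which 69 lay below the minimum and 11 lacked an own probe set.

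Same-numbered arrays correlated at 0.157 to 0.844 in their deviations from condition means, and other pairs at -0.743 to 0.731. Other pairs that included a replicate 1 array were all negative, and those between replicates 2 and 3 were at 0.214 to 0.731. All same-numbered pairs were above 0.1, so values from a fit blocked on replicate number stand beside results they change; what a number shares is not in the labels. The steps were tested on simulated data. Alternatives covered the level filter, probe sets, normalization, a floor, eBayes settings, the samples fitted, replicate blocks, a fold threshold and each array left out. Genes were matched to RefSeq promoter windows by symbol.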

Additional observations from a re-analysis of the deposited data

How the results depend on the processing

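The count of lysosomal genes called higher after 6 h of LPS was 0 under every alternative run. The count called lower there was 0 except with the replicate block (8) and with a block of replicate 1 against replicates 2 and 3 (10). In tolerant against unstimulated cells the higher count was 1 except with the replicate block, with replicates 2 and 3 only and with the block of replicate 1 (2 each), and with treat, limma's test against a log2 change of 0.5 (0). The lower count of 7 became 15 with each of those 3 replicate settings and 2 with treat; it was 6 with no level filter, the stricter minimum or the mean of passing probe sets, and 8 with quantile normalization or centring, and leaving out 1 array gave 4 to 8. In tolerant against 6 h LPS cells the higher count of 2 became 4 with the replicate block, 5 with the block of replicate 1, 0 with treat, and 1 with no level filter, the mean of passing probe sets, further quantile normalization, arrays centred on their median, eBayes trend, or a fit of the 2 conditions alone. Leaving out 1 array gave 1 to 2. The lower count of 3 became 7 with the replicate block, 8 from replicates 2 and 3 only, 10 with the block of replicate 1, 0 with treat, 2 with the stricter minimum and 4 with no level filter or centring, and leaving out 1 array gave 2 to 4. The cause of these shifts was not tested, apart from treat, which asks for a larger change.

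Of 2718 values of single genes under alternatives, 4 took a called direction opposite to the value reported, all on other probe sets: Lamp2 at 1.00 and 0.94 and Ctsb at -0.63 against unstimulated cells, and Neu1 at -1.51 against 6 h; the cause was not tested. A further 120 changed sign where neither value was called. With 3 arrays a group, the intervals without the block are wide where replicate 1 stands apart, as for Tfeb.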
